A study of Mus musculus with 16 samples.

Results

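The 10 genes described here encode proteins by which cochlear hair cells signal, move and buffer calcium: Otof and Slc17a8 of the afferent synapse, the motor gene Slc26a5, the calcium buffers Ocm, Pvalb, Calb1 and Calb2, the efferent receptor subunits Chrna9 and Chrna10, and the potassium channel gene Kcna10. They were taken by gene symbol from 47729 genes with values, and all 10 were listed and passed the filter on low values. RNA was sequenced in 16 libraries from mouse cochleae at P4, 4 of input and 4 of IP RNA from each of 2 genotypes, called control and DTR. Control mice carried GLAST-CreERT/+ and Rpl22-HA/+ (RiboTag), and DTR mice carried Lgr5-DTR/+ as well. In RiboTag mice, Cre recombination adds an HA tag to a ribosomal protein, so that an anti-HA antibody pulls down (IP) the mRNA bound to ribosomes of Cre-expressing cells. Here CreERT was driven by the GLAST gene (Slc1a3), which is active in supporting cells and greater epithelial ridge cells, so the IP was not directed at hair cells. DTR is the diphtheria toxin receptor, placed at Lgr5, and toxin kills the Lgr5-expressing supporting cells that carry it. According to the study's methods both genotypes received diphtheria toxin and tamoxifen at P1, whereas the sample labels give the controls as untreated. Each replicate was a pool of cochleae from several mice, with 5% of its homogenate kept as input and 95% used for IP.

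Hair cells convert sound into receptor potentials. Inner hair cells pass the signal to spiral ganglion neurons at ribbon synapses, where calcium entry triggers the release of glutamate, while outer hair cells change length and so amplify sound. Medial olivocochlear efferent fibers act on hair cells through a nicotinic acetylcholine receptor whose calcium current opens potassium channels. Small EF-hand proteins buffer calcium within these cells, and several of them are also made by neurons and supporting cells.

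Counted reads ranged from 28089836 to 41966310 per library, and 3 reads corresponded to 0.0715 to 0.107 CPM (read counts of a gene in each 1000000 reads counted). Lgr5, the gene of the ablated cells, was at 59.0 to 66.1 CPM in control input and 11.2 to 19.6 CPM in DTR input, and the log2 fold change (LFC) was -2.0 ± 0.15 (SE; adjusted p = 2.2e-08, limma). Slc1a3, the Cre driver gene, had means of 236 ± 21.9 CPM (IP) and 281 ± 14.3 CPM (input) in controls (SD, n = 4), and was not called between them (LFC -0.20, adjusted p = 0.10). Of 16 hair cell identity genes none was at 0, and their summed level was 703 to 884 CPM in control input, 552 to 676 in control IP, 634 to 790 in DTR input and 511 to 571 in DTR IP. In bulk libraries, fewer cells of a type and less RNA per cell cannot be told apart.

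In GENCODE M21 on GRCm38, 4 of the 10 genes lie on chromosome 5: Slc26a5 (chr5:21810655-21865604), Otof (chr5:30367062-30461932), Chrna9 (chr5:65934921-65977326) and Ocm (chr5:144019804-144026670). The others are Slc17a8 (chr10:89574020-89621253), Pvalb (chr15:78191114-78206400), Calb1 (chr4:15881264-15908064), Calb2 (chr8:110137502-110168210), Chrna10 (chr7:102111266-102116828) and Kcna10 (chr3:107183056-107195721). Chrna10 overlaps Art1 on the opposite strand, so that reads could be shared between them, as the strand setting of the counting was not stated. Chrna9 overlaps 4930480C01Rik and Gm43771 on its own strand, where no strand setting would separate shared reads. RefSeq (GRCm38.p6) gave upstream windows of 250 bases for 7 of the 10 genes, 9 windows in all. Those shown belong to the gene that rose most after damage (Slc17a8), to the motor gene (Slc26a5) and to both subunits of the efferent receptor. They lie at chr10:89621250-89621499 and chr5:21865605-21865854 on the minus strand, chr5:65966874-65967123 on the plus strand and chr7:102116714-102116963 on the minus strand. Each is written 5′ to 3′ up to the base before the RefSeq start, and capitals mark the motif CAGCTG.
Slc17a8: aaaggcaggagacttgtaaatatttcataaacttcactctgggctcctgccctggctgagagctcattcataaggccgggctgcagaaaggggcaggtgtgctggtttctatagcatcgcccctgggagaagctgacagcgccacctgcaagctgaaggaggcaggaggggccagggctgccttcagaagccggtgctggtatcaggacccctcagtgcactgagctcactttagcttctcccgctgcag
Slc26a5: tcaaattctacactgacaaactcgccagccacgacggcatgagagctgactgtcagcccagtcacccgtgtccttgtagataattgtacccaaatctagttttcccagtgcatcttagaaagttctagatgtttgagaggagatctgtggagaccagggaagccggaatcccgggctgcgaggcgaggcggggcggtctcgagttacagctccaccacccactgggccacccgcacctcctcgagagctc
Chrna9: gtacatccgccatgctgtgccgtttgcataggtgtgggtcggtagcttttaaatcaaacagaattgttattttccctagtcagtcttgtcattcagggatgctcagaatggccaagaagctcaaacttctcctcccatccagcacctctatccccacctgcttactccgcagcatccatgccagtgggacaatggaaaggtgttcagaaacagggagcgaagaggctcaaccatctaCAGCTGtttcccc
Chrna10: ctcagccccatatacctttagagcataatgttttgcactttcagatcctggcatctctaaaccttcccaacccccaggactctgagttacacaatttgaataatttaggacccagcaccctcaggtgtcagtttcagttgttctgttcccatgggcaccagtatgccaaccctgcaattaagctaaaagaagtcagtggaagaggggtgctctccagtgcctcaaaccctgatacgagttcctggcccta
The E-box CAGCTG, a palindrome and so the same on both strands, was present in 1 of the 9 windows (Chrna9) and in 13% of 32851 windows of the same length over all genes. That Chrna9 window lies inside the gene as positioned above, its RefSeq start being 32203 bases from the GENCODE start. The TATA box TATAAA, searched on both strands, was in 0 of the 9 and in 12.4% of all windows. The windows of the Slc26a5 and Chrna10 genes differed in base composition, with GC contents of 56.0% and 48.0% and 13 and 1 CpG dinucleotides, against medians of 52.4% and 6 over all windows.

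Levels were compared between genes per length of their annotated exons. In control input, Calb1 had the highest mean at 143 ± 12.4 CPM per kilobase (SD, n = 4), followed by Calb2 at 112 ± 49.8, Pvalb at 72.2 ± 38.3 and Ocm at 55.9 ± 12.5 CPM per kilobase. Neighbours among these 4 calcium buffers overlapped in range over libraries, and the range of Ocm lay above that of the next gene, Chrna10, at 22.4 ± 5.40. Otof followed at 18.1 ± 5.26, Kcna10 at 10.9 ± 1.57, Slc26a5 at 7.46 ± 0.71 and Chrna9 at 5.93 ± 1.42 CPM per kilobase. Slc17a8 was lowest at 0.41 ± 0.12 CPM per kilobase, below the range of every other gene of the set in control input. Chrna10 and Otof overlapped in range, as did Slc26a5 and Chrna9.

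**Figure D1:**
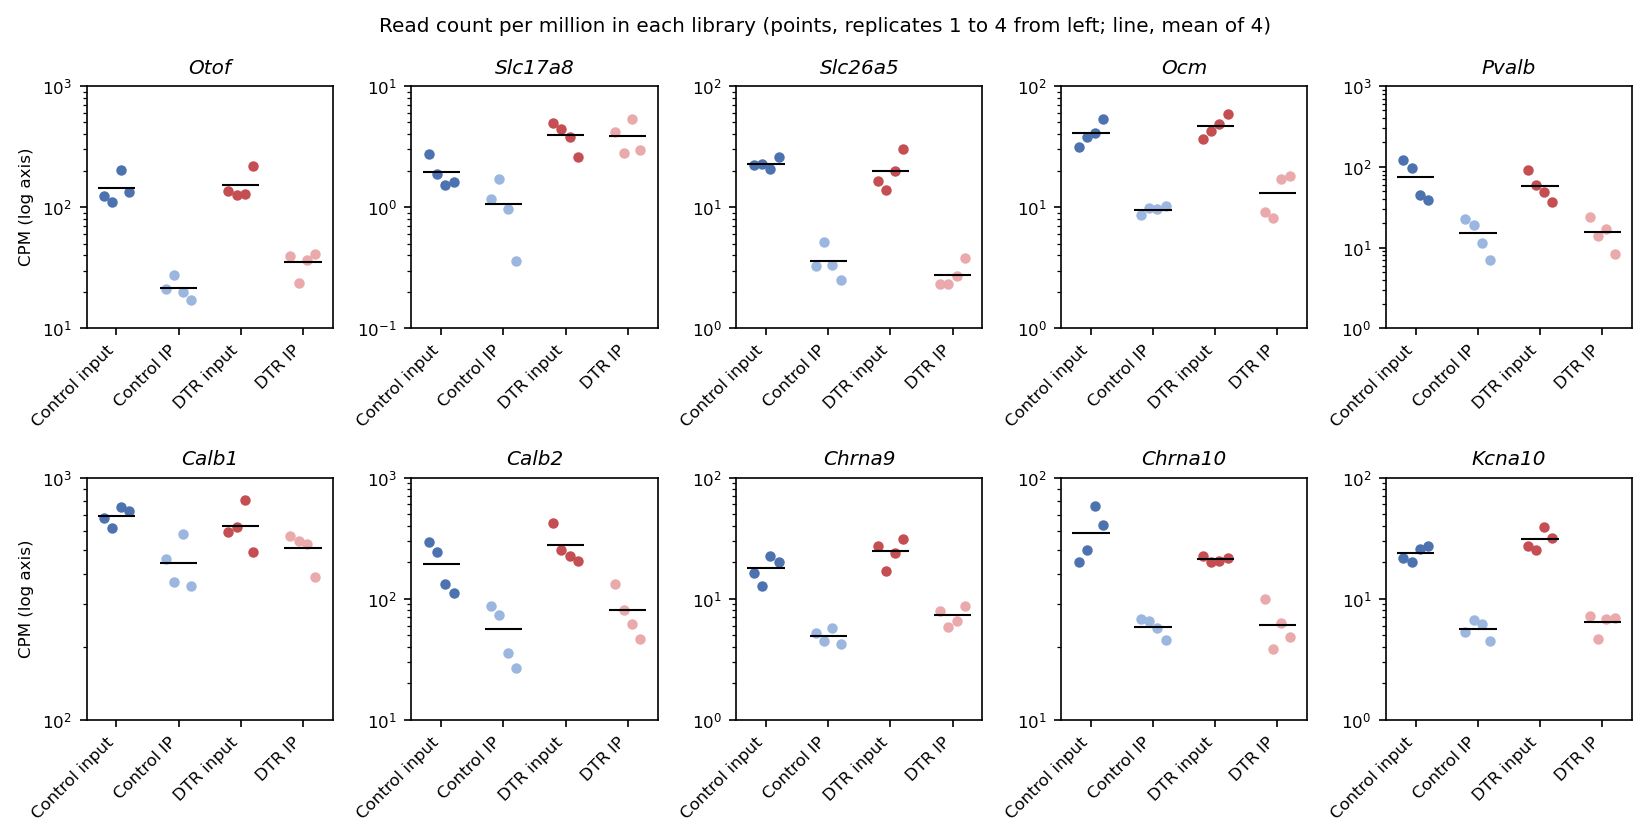
Deposited CPM of each of the 10 genes in the 16 libraries, on log axes that differ between panels; points are libraries of a group and lines are means of 4. Slc26a5 sits at 20.6 to 25.9 CPM in control input and 2.52 to 5.21 CPM in control IP, while Slc17a8 in DTR IP (2.81 to 5.37 CPM) lies above control IP (0.36 to 1.72 CPM).

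The first question was how far these hair cell genes appeared among ribosome-bound mRNA of GLAST-Cre+ cells. In controls all 10 were lower in IP than in input (adjusted p under 0.05, limma), where 20.7% of the 16994 genes tested were lower, 19.3% higher and 39.9% called in either direction. In DTR cochleae 8 of 10 were lower, where 20.5% of genes tested were lower, 18.6% higher and 39.2% called, and Slc17a8 and Calb1 were not called. The median LFC of the 10 genes was -1.85 in controls and -1.84 in DTR, beside medians of -0.0012 and -0.027 over all genes tested. Fold changes are on the scale of log2(normalized CPM + 0.5), which understates the change of low genes.

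**Figure D2:**
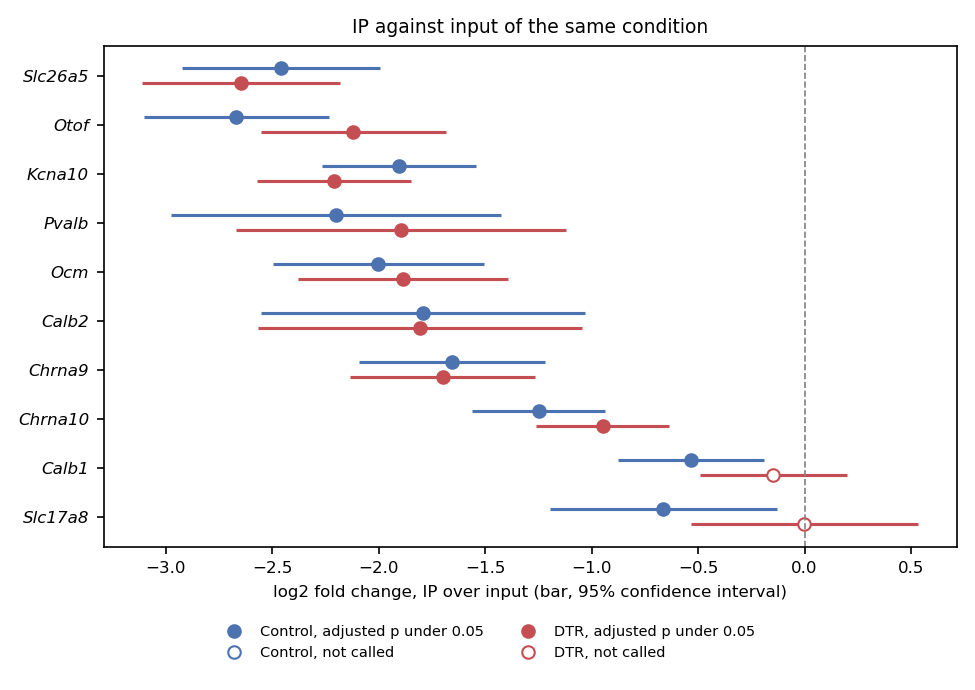
LFC of IP over input for each gene in controls (blue) and DTR (red), with bars for the 95% confidence interval and filled points for adjusted p under 0.05. Genes are ordered by mean log2 IP over input across 8 pools, from Slc26a5 at -2.55 to Slc17a8 at -0.33.

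Otof, which encodes the calcium sensor otoferlin required for glutamate release by inner hair cells, was strongly depleted in the IP. It was at 124, 110, 204 and 134 CPM in control input and at 21.1, 27.5, 19.8 and 17.0 CPM in control IP. The lowest input library was thus well above the highest IP library, and the LFC was -2.67 ± 0.21 (SE; adjusted p = 1.5e-08, limma). In DTR it was at 137, 127, 129 and 218 CPM in input and 39.6, 23.5, 36.6 and 40.8 CPM in IP, again without overlap, and the LFC was -2.12 ± 0.21 (adjusted p = 3.3e-07, limma).

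Slc17a8 encodes VGLUT3, the transporter that fills inner hair cell vesicles with glutamate. It was at 2.76, 1.89, 1.52 and 1.60 CPM in control input and at 1.17, 1.72, 0.97 and 0.36 CPM in control IP, the last of which was 11 reads. These groups overlapped, and the LFC of -0.66 ± 0.25 only just passed the test (SE; adjusted p = 0.045, limma). The call was lost with edgeR (adjusted p = 0.073) and when control input replicates 1 to 4, control IP replicates 1, 3 and 4, DTR input replicates 2 and 3 or DTR IP replicate 1 was left out in turn, with an adjusted p of up to 0.17. In DTR the libraries of Slc17a8 overlapped, at 2.62 to 4.96 CPM in input and 2.81 to 5.37 CPM in IP. The LFC there was -0.00044 with a 95% confidence interval from -0.53 to 0.53.

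Other genes of the ribbon synapse and related transporters were mostly not depleted to this extent. Of 13 ribbon synapse genes tested, 4 were lower and 2 higher in control IP than in control input, with a median LFC of -0.26. The lower ones included Snap25 (LFC -2.68 ± 0.74, adjusted p = 0.0073, limma), a vesicle fusion protein of neurons in general, and the higher ones included Bsn (0.73 ± 0.26, adjusted p = 0.030, limma), which encodes the scaffold bassoon. Cabp2 was listed at 0 in all libraries. Of the other 4 ferlins tested 3 were lower in control IP, led by Fer1l6 (LFC -1.64 ± 0.26, adjusted p = 7.2e-05, limma). Of 10 other vesicular glutamate and Slc26 transporters tested, 1 was higher in control IP (Slc26a2, LFC 0.48) and none was lower, with 0 of 10 called in DTR.

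Slc26a5, which encodes prestin, the motor protein of outer hair cells, had the lowest mean IP over input of the set across the 8 pools, next to Otof, from which it did not differ beyond their spread (p = 0.45, exact sign-flip test); in controls alone the LFC of Otof was lower. It was at 22.4, 22.6, 20.6 and 25.9 CPM in control input and at 3.29, 5.21, 3.35 and 2.52 CPM in control IP. The groups were far apart, the mean in IP was 15.7% of the mean in input, and the LFC was -2.46 ± 0.22 (adjusted p = 9.0e-08, limma). In DTR the mean in IP was 13.9% of input (LFC -2.65 ± 0.22, adjusted p = 4.7e-08, limma). Of 4 other outer hair cell markers reported here, 3 were higher in control IP and 1 was lower, with a median LFC of 0.46, and in DTR 2 were higher and 1 lower. The higher ones were led by Ikzf2, a transcription factor of outer hair cells (LFC 1.67 ± 0.17), and the lower one was Strc, which encodes stereocilin (-2.62 ± 0.33; adjusted p = 3.9e-07 and 5.4e-06, limma).

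Ocm, which encodes oncomodulin, a calcium buffer of outer hair cells, was at 31.6, 37.9, 40.7 and 53.5 CPM in control input and 8.55, 9.87, 9.58 and 10.2 CPM in control IP. The IP libraries were close together and all below the input libraries, with an LFC of -2.0 ± 0.24 (adjusted p = 2.4e-06, limma). In DTR the LFC was -1.89 ± 0.24 (adjusted p = 5.9e-06, limma).

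Calb1 encodes calbindin, a calcium buffer found in hair cells and in other cochlear cells, and was depleted least among the buffers. It was at 679, 616, 754 and 726 CPM in control input and at 459, 370, 586 and 358 CPM in control IP, without overlap (LFC -0.53 ± 0.16, adjusted p = 0.014, limma). Without control IP replicate 4 this call was lost (adjusted p = 0.052). In DTR the groups overlapped, and the 95% confidence interval of the LFC ran from -0.49 to 0.20. Calb1 had the highest mean of the set in control IP, as it had in control input. It was at 91.5 ± 21.8 CPM per kilobase in control IP, above the range of Calb2 at 32.0 ± 16.8.

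Pvalb (parvalbumin) and Calb2 (calretinin), calcium buffers of inner hair cells and also of spiral ganglion neurons, were lower in IP in both genotypes. Pvalb was at 121, 96.5, 44.4 and 39.2 CPM in control input and 22.9, 18.9, 11.4 and 7.03 CPM in control IP (LFC -2.20 ± 0.37, adjusted p = 0.00011, limma). Calb2 was at 291, 244, 133 and 111 CPM in control input and 87.7, 73.0, 35.6 and 26.7 CPM in control IP (LFC -1.79 ± 0.36, adjusted p = 0.00064, limma). Both were higher in replicates 1 and 2 than in replicates 3 and 4 of control input and control IP. Within a pool the share was steadier: Calb2 in IP was 24.1% to 30.1% of its own input over the 4 control pools. In DTR the LFC was -1.90 ± 0.37 for Pvalb and -1.80 ± 0.36 for Calb2 (adjusted p = 0.00050 and 0.00067, limma).

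The spread of Pvalb and Calb2 over replicates moved broadly with markers of spiral ganglion neurons, although the ganglia were removed at dissection. Pvalb departed from the order of the neuron markers in DTR IP, at 23.6, 14.0, 17.0 and 8.45 CPM. Slc17a8 was also highest in replicate 1 of control input and of DTR input, but not in IP. The summed level of 10 neuron markers was 630, 562, 178 and 138 CPM in control input, 250.5, 259, 79.1 and 56.4 in control IP, 528, 320, 158 and 66.2 in DTR input, and 282, 159, 103 and 37.4 in DTR IP. None of these markers was at 0 throughout a group, and their part in the levels of Pvalb and Calb2 was not tested. With replicates 3 and 4 of each group alone, a choice made after seeing the data, 8 of the 10 genes were lower in control IP, Pvalb (LFC -2.03, adjusted p = 0.0020) and Calb2 (-1.89, adjusted p = 0.00025) among them, and Slc17a8 and Calb1 were not called. Ocm ran the other way, with replicates 3 and 4 above replicates 1 and 2 in control input, DTR input and DTR IP, and Otof was highest in replicate 3 of control input and replicate 4 of DTR input.

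**Figure D3:**
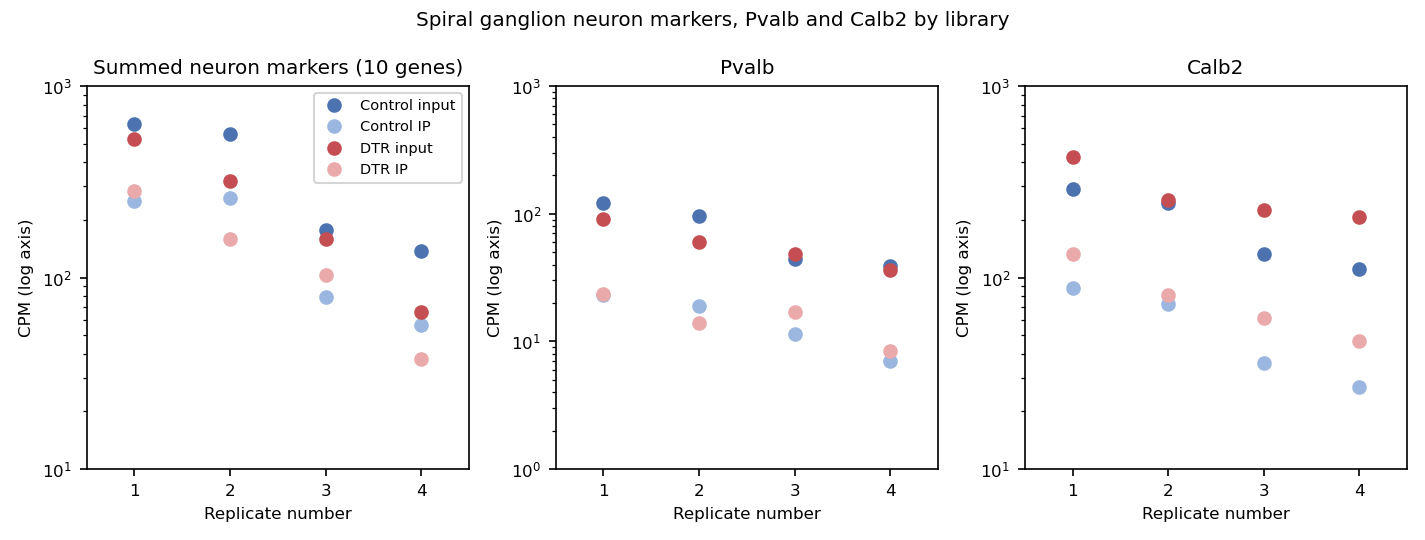
Summed CPM of 10 spiral ganglion neuron markers and CPM of Pvalb and Calb2 in each library, by replicate number, on log axes. In control input the neuron sum is 630 and 562 CPM in replicates 1 and 2 and 178 and 138 CPM in replicates 3 and 4, and Pvalb is 121 and 96.5 against 44.4 and 39.2 CPM.

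Of 14 calcium pumps, exchangers and other small EF-hand genes tested, 6 were lower and 3 higher in control IP, with a median LFC of -0.49. Atp2a3, a pump that fills the endoplasmic reticulum with calcium, had the lowest value (LFC -3.11 ± 0.19, adjusted p = 6.0e-10, limma). S100b, a buffer made by glia and supporting cells, was higher (LFC 0.64 ± 0.17, adjusted p = 0.0044, limma), so the direction differed among calcium-binding genes.

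Chrna9 and Chrna10 encode the α9 and α10 subunits, which form the efferent receptor together. Chrna9 was at 16.3, 12.8, 22.6 and 20.2 CPM in control input and 5.20, 4.48, 5.70 and 4.25 CPM in control IP (LFC -1.66 ± 0.21, adjusted p = 4.8e-06, limma). Chrna10 was at 44.9, 50.4, 76.5 and 64.0 CPM in control input and 26.0, 25.6, 24.0 and 21.3 CPM in control IP (LFC -1.25 ± 0.15, adjusted p = 2.7e-06, limma). Neither overlapped between IP and input, and both were also lower in DTR IP, with LFCs of -1.70 ± 0.21 and -0.95 ± 0.15 (adjusted p = 4.5e-06 and 6.5e-05, limma). Over pools of both genotypes, Chrna10 had a log2 IP over input 0.58 ± 0.35 above that of Chrna9 (SD over 8 pools), higher in 8 of 8 pools (exact sign-flip test, two-sided, p = 0.0078, adjusted over 9 neighbour pairs p = 0.035). That test takes the 8 pools as independent, whereas control and DTR libraries of a number deviated together; with the 4 replicate numbers as units no p under 0.125 can be reached, so no such step could pass.

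Of 8 other nicotinic subunits tested 2 were lower and none higher in control IP, led by Chrna1 (LFC -1.77 ± 0.21, adjusted p = 2.8e-06, limma), a subunit of the muscle receptor. Markers of skeletal muscle summed to 2.12 to 5.72 CPM in control input, with Myod1 and Myh3 at 0 in all 4 libraries. Of 4 genes acting with the efferent receptor, 2 were lower in control IP: Ryr1 (LFC -0.61 ± 0.20) and Kcnma1 (-0.47 ± 0.17; adjusted p = 0.022 and 0.032, limma), a calcium release channel and a calcium-activated potassium channel. Kcnn2, the SK2 potassium channel gated by calcium from the receptor, was not called in controls, and in DTR it was higher in IP than input (LFC 0.46 ± 0.14, adjusted p = 0.016, limma).

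Kcna10, a voltage-gated potassium channel of hair cells, was at 21.7, 19.9, 25.8 and 27.2 CPM in control input and 5.26, 6.69, 6.14 and 4.51 CPM in control IP. No IP library reached the lowest input library, and the LFC was -1.90 ± 0.17 (adjusted p = 1.0e-07, limma), with -2.21 ± 0.17 in DTR (adjusted p = 2.1e-08, limma). Of 6 other Kcna channels tested 2 were lower in control IP, Kcna6 (LFC -2.03 ± 0.26) and Kcna1 (-1.18 ± 0.21; adjusted p = 6.1e-06 and 0.00022, limma), both expressed in neurons.

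Over 8 pools the mean log2 IP over input ran from -2.55 ± 0.28 for Slc26a5 (SD) through Otof (-2.39 ± 0.50), Kcna10 (-2.06 ± 0.30), Pvalb (-2.05 ± 0.28), Ocm (-1.94 ± 0.26), Calb2 (-1.80 ± 0.17) and Chrna9 (-1.68 ± 0.19) to Chrna10 (-1.10 ± 0.33). Calb1 (-0.34 ± 0.31) and Slc17a8 (-0.33 ± 0.55) followed. Before clustering, the study corrected its IP samples for an effect of gene length, which was not done here. Annotated exons ran from 733 bases (Ocm) to 7904 bases (Otof), and the part of length in this order was not tested. Of the 9 steps between neighbours 2 passed an exact sign-flip test with pools taken as independent, Chrna9 to Chrna10 and Chrna10 to Calb1, the latter by 0.76 ± 0.37 in 8 of 8 pools (p = 0.0078, the smallest 8 pools allow, adjusted p = 0.035). Among the 7 genes from Slc26a5 to Chrna9, no step between neighbours passed (adjusted p from 0.28 to 0.97, exact sign-flip test). The order was taken from these same pools, which keeps steps between neighbours small, and genes further apart were not compared.

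Genes listed as hair cell markers did not all behave this way in the IP. Which cells made the RNA of those that were higher, Tbx2 included, was not tested. Of 16 hair cell identity genes 9 were lower and 3 higher in control IP, with a median LFC of -0.76. Lhfpl5, a component of the mechanotransduction channel, was lowest (LFC -2.25 ± 0.15, adjusted p = 2.5e-09, limma), followed by Ptprq (-1.82 ± 0.20, adjusted p = 1.2e-06, limma), whereas Atoh1, the transcription factor that specifies hair cells, was higher (0.87 ± 0.24, adjusted p = 0.0083, limma). Of 4 inner hair cell markers, Fgf8 and Shtn1 were lower (LFC -0.90 ± 0.22 and -0.71 ± 0.13) and Tbx2 was higher (1.00 ± 0.10; adjusted p = 0.0027, 0.00027 and 3.9e-07, limma). Macrophage (8 of 8), endothelial (5 of 5), Schwann cell (7 of 8) and mesenchymal (4 of 5) markers were also lower in control IP, beside 2 of 10 neuron markers and 4 of 10 supporting cell markers, of which 4 others were higher, led by Lfng (LFC 1.92 ± 0.17).

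The second question was whether ablation of Lgr5+ cells changed these genes. In IP, Slc17a8 and Otof rose and the other 8 were not called, where 8.44% of genes tested were higher in DTR IP, 7.30% were lower and 15.7% were called in either direction. In input none of the 10 was called, where 12.4% of genes tested were, 7.17% higher and 5.21% lower. At an unadjusted p under 0.05, 4 of 10 passed in input, where 23.2% of genes tested did, and edgeR called 0 and DESeq2 1, where they called 12.2% and 14.3%. Libraries sharing a number deviated together across genotypes, and a fit blocked by that number called 4 of 10 higher in IP and 3 of 10 higher in input, where it called 12.2% and 9.76% of genes tested higher. The median LFC of the 10 genes was 0.29 in IP and 0.14 in input, beside -0.0043 and -0.021 over all genes tested. These comparisons share the control and DTR libraries with those of IP against input.

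**Figure D4:**
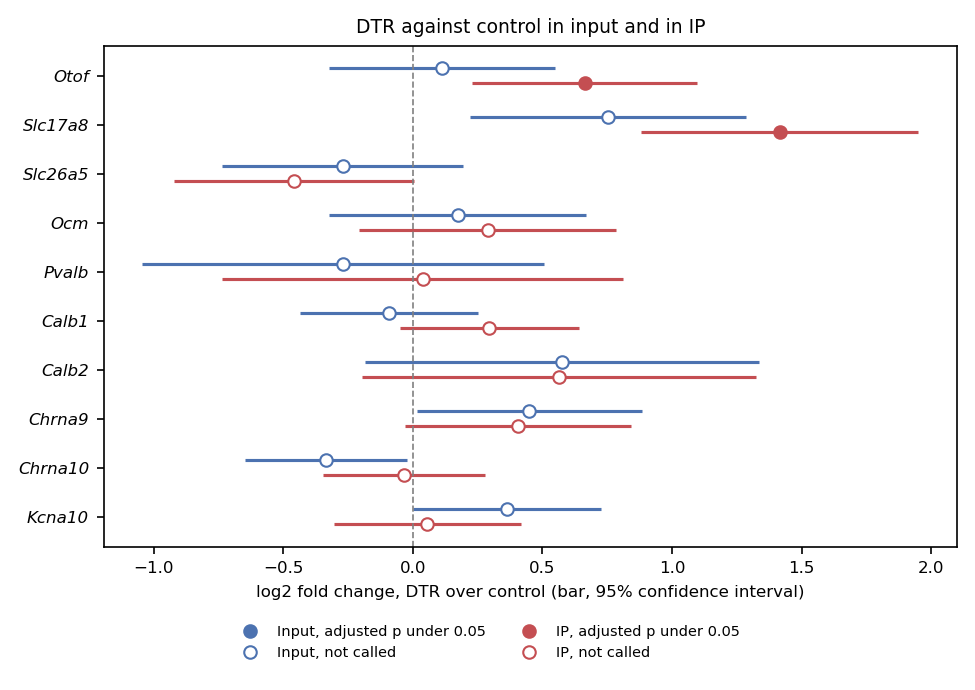
LFC of DTR over control for each gene in input (blue) and IP (red), with bars for the 95% confidence interval and filled points for adjusted p under 0.05. Filled points are Slc17a8 (1.42) and Otof (0.66) in IP.

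Slc17a8 showed the largest change of the set. From 0.36 to 1.72 CPM in control IP it reached 4.21, 2.81, 5.37 and 2.96 CPM in DTR IP. The groups did not overlap, each DTR library was above the control library of its number, and the LFC was 1.42 ± 0.25 (adjusted p = 0.00065, limma). It kept its call with edgeR (adjusted p = 0.0020), with DESeq2 and without any 1 library. In input it was at 4.96, 4.46, 3.83 and 2.62 CPM in DTR, above the control library of the same number in 4 of 4 pairs though with overlap of the ranges (LFC 0.75 ± 0.25, adjusted p = 0.062, limma). In the fit blocked by replicate number the call in input passed (adjusted p = 0.017), as it did with DESeq2 (adjusted p = 0.029) and without control input replicate 1, DTR input replicate 4, control IP replicate 4 or DTR IP replicate 3 (adjusted p = 0.039, 0.034, 0.032 and 0.045).

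Otof rose less, with means in IP of 21.4 ± 4.45 CPM (control) and 35.2 ± 7.95 CPM (DTR; SD, n = 4; LFC 0.66 ± 0.21, adjusted p = 0.036, limma). DTR IP replicate 2, at 23.5 CPM, lay within the control range, and 3 of 4 same-number pairs were higher in DTR. The call was lost with edgeR (adjusted p = 0.051) and without control IP replicate 1, 3 or 4 (0.075, 0.083 and 0.084) or DTR IP replicate 1, 3 or 4 (0.087, 0.081 and 0.097). In input the LFC of Otof was 0.11, with a 95% confidence interval from -0.32 to 0.55.

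The difference between the LFCs in IP and input, which tests whether damage acted differently on the 2 sample types, was called for 0 of the 10 genes, at 0.0118% of genes tested. None of the 10 passed at an unadjusted p under 0.05, where 870 genes did (5.12%), nor with edgeR or DESeq2 after adjustment. It was 0.66 ± 0.36 for Slc17a8 and 0.55 ± 0.29 for Otof (SE), with intervals from -0.09 to 1.42 and -0.07 to 1.16, so a change particular to IP was not shown.

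Other genes of the afferent synapse did not rise as a group. Of 13 ribbon synapse genes 1 was higher in DTR IP (Nrxn3, LFC 0.45 ± 0.15) and 2 were lower, the calcium channel subunit gene Cacna2d2 (-0.61 ± 0.19) and Gipc3 (-0.56 ± 0.19; adjusted p = 0.045, 0.031 and 0.048, limma). In input 1 was higher, Rims2 (LFC 0.82 ± 0.25, adjusted p = 0.035, limma). Among ferlins Fer1l6 was lower in DTR IP (LFC -1.36 ± 0.26, adjusted p = 0.0013, limma) while Myof was higher (1.07 ± 0.30, adjusted p = 0.018, limma). Of the related transporters Slc26a1 was lower in IP (LFC -0.95 ± 0.27) and Slc26a11 higher in input (0.63 ± 0.17; adjusted p = 0.021 for each, limma).

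Slc26a5 was not called after damage. It was at 2.31, 2.31, 2.72 and 3.78 CPM in DTR IP, within or just below the control IP range, with an LFC of -0.46 and a 95% confidence interval from -0.92 to 0.01. In DTR input it was at 16.4, 13.9, 19.7 and 30.1 CPM, spread on both sides of the control libraries (LFC -0.27, interval from -0.73 to 0.19). Among outer hair cell markers Lbh was lower in DTR IP (LFC -0.60 ± 0.15, adjusted p = 0.0099, limma). Ikzf2 was higher in input (LFC 0.55 ± 0.17, adjusted p = 0.037, limma).

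Among the calcium buffers Calb2 was called after damage only in the fit blocked by replicate number and, in input, with replicates 3 and 4 alone. It was at 424, 254, 227 and 206 CPM in DTR input and 133, 81.2, 61.8 and 46.4 CPM in DTR IP, above the control library of its number in 4 of 4 pairs in each. The LFC was 0.58 ± 0.36 in input and 0.56 ± 0.36 in IP (adjusted p = 0.38 and 0.34, limma), and in the fit blocked by replicate number the SE fell to 0.13 in each and the adjusted p to 0.0034 in each. It was not called with edgeR (adjusted p = 0.49 in input and 0.46 in IP) or DESeq2 (0.59 and 0.53). With replicates 3 and 4 alone, the LFC of Calb2 was 0.82 in input (adjusted p = 0.044) and 0.73 in IP (adjusted p = 0.051). The summed neuron markers were lower in DTR than in control input in 4 of 4 pairs and in IP higher in 2 and lower in 2, and 0 of 10 were called in either comparison (limma; the adjusted p was above 0.05 for each); their part in the change of Calb2 was not tested.

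Pvalb was not called: its LFC was -0.27 in input and 0.04 in IP, with intervals from -1.04 to 0.51 and -0.74 to 0.81 without the block. In the fit blocked by replicate number the SE was 0.15 in each and the adjusted p 0.24 in input and 0.89 in IP. Ocm was at 36.7, 42.4, 48.9 and 59.0 CPM in DTR input, each 110% to 120% of the control library of its number, and at 9.19, 8.15, 17.2 and 18.2 CPM in DTR IP. Replicates 3 and 4 of DTR IP were above all control IP libraries and replicate 2 below all of them, and neither LFC was called (0.17 in input and 0.29 in IP, intervals from -0.32 to 0.67 and -0.21 to 0.78). Calb1 was at 389 to 574 CPM in DTR IP and 492 to 807 CPM in DTR input, with LFCs of 0.30 and -0.09 (intervals from -0.05 to 0.64 and -0.44 to 0.25). Of 14 related calcium genes S100a1 was lower in both IP and input (LFC -1.20 ± 0.14 and -0.70 ± 0.14) and S100b higher in IP (0.58 ± 0.17; adjusted p = 9.0e-06, 0.0027 and 0.021, limma).

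Neither subunit of the efferent receptor was called after damage without the block, and the difference between their changes was not tested. Chrna9 was at 27.2, 16.9, 23.8 and 31.3 CPM in DTR input and 7.97, 5.87, 6.56 and 8.75 CPM in DTR IP. The IP libraries were all above those of controls, and the LFC was 0.41 ± 0.21 in IP and 0.45 ± 0.21 in input (adjusted p = 0.21 and 0.20, limma). In the fit blocked by replicate number both passed (adjusted p = 0.049 in IP and 0.037 in input). Chrna10 was at 47.6, 44.6, 45.1 and 46.5 CPM in DTR input and 31.6, 19.6, 25.0 and 22.1 CPM in DTR IP, inside or near the control ranges, and its LFC was -0.04 in IP and -0.34 in input (intervals from -0.35 to 0.28 and -0.65 to -0.02, adjusted p = 0.91 and 0.17, limma). Of 4 partner genes Ryr1 and Kcnma1 were higher in DTR IP (LFC 0.90 ± 0.20 and 0.59 ± 0.17, adjusted p = 0.0044 and 0.021, limma), and of 8 other nicotinic subunits Chrng was lower in IP and input (-0.79 ± 0.25 and -1.16 ± 0.25, adjusted p = 0.037 and 0.0033, limma). Ryr1 and Chrng are also genes of muscle, and the summed skeletal muscle markers were 2.62 to 3.53 CPM in control IP and 5.52 to 7.85 CPM in DTR IP, and in input 2.12 to 5.72 and 7.43 to 10.8 CPM. Of the 3 muscle markers tested 1 was called, Acta1, a skeletal muscle actin (LFC 2.57 ± 0.24 in IP and 2.75 ± 0.24 in input, adjusted p = 4.0e-07 and 1.6e-07, limma). The median LFC of the 3 was only 0.17 in IP and -0.01 in input. The part of muscle in the values of the receptor and partner genes was not tested.

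Kcna10 was at 27.4, 25.3, 39.2 and 31.8 CPM in DTR input and 7.20, 4.66, 6.76 and 6.97 CPM in DTR IP. In input it was above its same-number control in 4 of 4 pairs, though not called (LFC 0.36 ± 0.17, adjusted p = 0.21, limma; 0.084 in the fit blocked by replicate number), and in IP the LFC was 0.06 (interval from -0.31 to 0.42). Of 6 other Kcna channels 3 were lower in DTR input and 2 in DTR IP, with Kcna5 the lowest (LFC -1.65 ± 0.21 and -2.40 ± 0.21, adjusted p = 1.2e-05 and 1.1e-07, limma). Schwann cell markers moved beside them: 6 of 8 were lower in DTR input (median LFC -1.05) and 2 of 8 in DTR IP (-0.35). Their sums were 3173 to 5464 CPM in control input and 1626 to 2432 CPM in DTR input, and 921 to 1439 and 684 to 906 CPM in IP. Supporting cell markers were lower as well, 8 of 10 in DTR input and 8 of 10 in DTR IP (median LFC -1.72 and -1.60). The part of either cell type in the Kcna values was not tested.

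Levels were also taken relative to the mean of the 16 hair cell identity genes in each library, since damage could alter the share of hair cell RNA. That mean changed little, by -0.10 in IP and -0.11 in input on the log2 scale (exact permutation test, two-sided, p = 0.34 and 0.40). Relative to it, Slc17a8 was 1.52 higher and Otof 0.77 higher in DTR IP on the log2 scale (exact permutation p = 0.029 and 0.057), and Chrna9 was 0.51 higher (p = 0.029). Kcna10 was 0.47 higher in DTR input (exact permutation p = 0.029). Of 20 such tests 3 had an unadjusted p under 0.05, which here is the smallest p that 4 against 4 libraries allow, and 0 passed adjustment over the 20 (lowest adjusted p = 0.19, exact permutation test). With that smallest p, a pass would need most of the 20 to reach it together, so the count of 0 decides nothing. Of the 16 identity genes themselves, 3 were lower and 1 higher in DTR IP, and 1 was lower and 1 higher in DTR input. In IP, Smpx (LFC -1.13 ± 0.16, adjusted p = 4.1e-05) and Atoh1 (-0.87 ± 0.24, adjusted p = 0.020) were among the lower ones. Myo6, a myosin of hair cells, was higher in IP (0.37 ± 0.11, adjusted p = 0.027, limma). In input, Atoh1 was lower (-1.09 ± 0.24, adjusted p = 0.0050) and Espn higher (0.55 ± 0.15, adjusted p = 0.017, limma).

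Markers of other cells moved with damage beside these genes. Supporting cell markers summed to 4074 to 4907 CPM in control IP and 2679 to 3232 CPM in DTR IP, and 8 of 10 were lower, led by Lfng (LFC -4.08 ± 0.17). Macrophage markers summed to 19.2 to 30.4 CPM in control IP and 42.6 to 68.6 CPM in DTR IP, and 5 of 8 were higher, led by C1qb (LFC 1.36 ± 0.15). In input the same sums were 3898 to 4334 and 3268 to 3836 CPM for supporting cells and 118 to 127 and 165 to 267 CPM for macrophages. Mesenchymal markers summed to 2227 to 3351 CPM in control IP and 3862 to 4674 CPM in DTR IP, with 3 of 5 higher, among them Tbx18 (LFC 0.67 ± 0.13). No defining marker of these 3 types was at 0. Inner hair cell markers summed to 263 to 292 CPM in control IP and 161 to 203 CPM in DTR IP, and to 175 to 191 and 132 to 155 CPM in input. Most of each sum was Tbx2 alone, at 235 to 264 CPM in control IP and 132 to 172 CPM in DTR IP. Tbx2 was higher in control IP than in control input, and which cells made its RNA was not tested. Of the 4 inner hair cell markers, Tbx2 (LFC -0.72 ± 0.10 in IP and -0.33 ± 0.10 in input) and Shtn1 (-0.43 ± 0.13 and -0.56 ± 0.13) were lower in both. Dnajc5b, which no control library held above 0.0484 CPM, had LFCs of 0.93 ± 0.23 in IP and 2.35 ± 0.23 in input. It could pass the filter on low values only through a DTR group, so its higher level was set in advance. The part of these cell types, and of the Schwann cell and muscle markers above, in the values of Slc17a8 and Otof was not tested.

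The genes whose levels followed each member most closely over the 16 libraries were found by Pearson's r on normalized log2 values, given as a description, since the libraries share pools and groups. Fcrlb was the closest for Otof (r = 0.99) and Chrna9 (0.97) and among the 3 closest for Ocm (0.97) and Kcna10 (0.98). Kcna10 was closest to Lhfpl5 (r = 0.98), Pvalb to Lhfpl4 (0.98), Calb2 to the neuronal kinesin gene Kif5a (0.98), Ocm to Igfbp7 (0.98), Slc26a5 to Heatr5b (0.98) and Chrna10 to Smarca1 (0.96). Slc17a8 was closest to the mesenchymal marker Tbx18 (r = 0.93), and Calb1 had the weakest closest gene, Hmgb1 (0.82).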

How the data were processed

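The authors aligned reads to GRCm38 with HISAT2 and counted them with HTSeq, according to the study's methods; the submitters' processing notes name TopHat. They deposited CPM per gene and library, with no pooling of replicates. Each library summed to 1000000, and 100% of values were whole multiples of 1 read (tolerance 0.02), so reads were recovered for edgeR (version 4.0.16) and DESeq2 (1.42.0), which called 2682 and 3114 genes for DTR IP against control IP. Of 50316 genes, 2587 were NA throughout. Replicate 4 carries the number 6 in the files. Depth is given in the report; floors of 3 reads cover counting error only, since reads are not independent molecules, and 95% intervals of an LFC come from limma and the spread between libraries.

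Quantile normalization ran over all 16 libraries, and 0.5 was added before taking log2. The study's correction of IP samples for gene length was not applied. The 16994 genes reaching 0.5 CPM throughout 1 group or more were fitted with limma (3.58.1, R 4.3.3; mean-variance trend, all groups, Benjamini-Hochberg adjustment, called at adjusted p under 0.05). All p-values given beside an LFC come from this fit unless another tool or setting is named. Per-library values were compared with exact tests (SciPy 1.17.1). Scripts were tested on simulated data. The study's own criteria of fold size and separation were not applied.

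Input and IP of a number come from the same homogenate, and deviations of same-numbered libraries correlated in each of the 16 pairs (mean r = 0.36 to 0.41; -0.12 to -0.13 between other numbers), control with DTR included, so the number was used as a block in an alternative fit. Deviations were taken from the group mean, so the negative values between other numbers follow from the positive ones and add no evidence. Replicates are separate pools.

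The 10 genes and the lists were chosen with earlier results of these data known. Named genes were the 10, Lgr5, Slc1a3, the called genes of each list with the largest change (at most 2 a direction), not all of which are printed, and the 3 genes closest to each member by r, of which the closest is named. Cabp2, Myod1 and Myh3 were named after their values were seen. A gene that the rule covers is not reported here. Alternatives were other normalizations, pseudocounts, filters, tools, a block, a fold minimum, libraries left out, and replicates 3 and 4 alone. Positions are from GENCODE M21 and upstream sequence from RefSeq, both of GRCm38.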

Additional observations from a re-analysis of the deposited data

Results flagged for a closer look

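Otof in DTR input had 1 library apart from the others: replicate 4 was at 218 CPM, while the other 3 lay between 127 and 137 CPM, and its gap to the next took 0.89 of the range, above Dixon's 95% critical value for 4 samples. This was the only one of 40 sets of 4 libraries (10 genes in 4 groups) past that value, where chance gives about 1 in 20. Slc26a5 also had its highest DTR input value in replicate 4 (30.1 CPM), without passing it. No gene of the 10 was called by the test of the difference between the LFCs in IP and input, which does not show that these were equal.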

How the results depend on the processing

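The count of genes lower in IP ranged from 8 to 10 of 10 in controls over libraries left out and stayed at 8 in DTR. For DTR IP against control IP the count was 2; it was 1 (Slc17a8) with no filter on low values, with edgeR, with an absolute LFC of at least 1 and with replicates 3 and 4 alone, 4 with the replicate block (Otof, Slc17a8, Calb2 and Chrna9), and 1 to 2 over libraries left out. For DTR input against control input the count was 0; it was 1 (Slc17a8) without quantile normalization, with median centring, with a pseudocount of 1, with the compared groups only and with DESeq2, 1 (Calb2) with replicates 3 and 4 alone, 3 with the replicate block (Slc17a8, Calb2 and Chrna9), and 0 to 1 over libraries left out. The replicate block changed no other call. The count for the difference between IP and input stayed at 0. The counts relative to hair cell identity genes also stayed at 0 under the pseudocounts and without quantile normalization, where a pass would need most tests at the smallest p together. In these relative tests, 4 pairs allow no p under 0.125 and 3 against 4 libraries none under 0.057, so only directions were taken. The count of neighbour steps was 2 under each setting run. Over 1600 single values under an alternative, 26 lost and 15 gained a call, no called value changed sign, and 52 uncalled values did, the rest keeping side and direction. Where a call changed, the cause was not tested. Depth limits Slc17a8 most, at 11 to 168 reads a library.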
